A study of Mus musculus with 4 samples.

Results

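The expression of 10 genes of the insulin and IGF pathway was followed on 4 microarrays of mouse cardiac mesenchymal progenitors (CMPs). They were the ligand Igf1, the receptors Igf1r and Insr, the receptor substrates Irs1 and Irs2, the IGF-binding proteins Igfbp2, Igfbp3, Igfbp4 and Igfbp5, and the glucose transporter Slc2a4. Members were the 19 probes, of 55681 on the array, whose gene name in the scanner files was one of these 10 symbols. The 10 genes were among 16660 genes with a probe well above background on at least 1 array.

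CMPs are Sca-1+ cells from the heart of adult C57BL/6 mice, and the atria were used. One array held untreated CMPs, labelled day 0 and here called the CMP control. The other 3 held CMPs transduced with OSKM (OSKM-CMPs), at day 4, 6 and 8. OSKM are the reprogramming factors Oct3/4, Sox2, Klf4 and c-Myc, delivered by Sendai virus. In the methods, day 0 of transduced cells is the day after transduction. The labels give DMEM/F12 with serum and bFGF for all of the cells, whereas the methods state that transduced cells were moved at day 0 to a medium with knockout serum replacement. No array of virus without the factors, or of untreated CMPs at a later day, was analysed here, so the effects of factors, virus, medium and time in culture cannot be told apart. Each condition had 1 array, so no difference carries a p-value, and the 3 differences from the control share 1 control array.

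Insulin binds the receptor encoded by Insr, and the insulin-like growth factors bind that encoded by Igf1r. Both receptors phosphorylate the substrates Irs1 and Irs2, which activate PI3 kinase and Akt, and in fat and muscle this signal moves the glucose transporter GLUT4, the product of Slc2a4, to the cell surface. IGF-binding proteins hold the growth factors outside the cell and can limit or prolong their action. In preadipocytes insulin and Igf1 are known inducers of fat cell formation, and Slc2a4 is a gene of the mature fat cell.

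The promoters of the binding proteins are shown because these genes had large rises and falls within a single family. Each window is the 250 bases before the start of the gene in RefSeq (mouse build GRCm38.p6), written on the strand of the gene. Capitals mark the E-box CACGTG, the CACCC box (CACCC, or GGGTG on the other strand) and the TATA box TATAAA.
Igfbp2, chr1:72824230-72824479, plus strand: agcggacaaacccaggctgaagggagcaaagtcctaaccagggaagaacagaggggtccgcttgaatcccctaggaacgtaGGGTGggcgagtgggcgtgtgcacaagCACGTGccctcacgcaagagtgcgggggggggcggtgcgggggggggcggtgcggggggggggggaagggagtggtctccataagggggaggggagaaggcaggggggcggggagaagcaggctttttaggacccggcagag
Igfbp3, chr11:7213924-7214173, minus strand: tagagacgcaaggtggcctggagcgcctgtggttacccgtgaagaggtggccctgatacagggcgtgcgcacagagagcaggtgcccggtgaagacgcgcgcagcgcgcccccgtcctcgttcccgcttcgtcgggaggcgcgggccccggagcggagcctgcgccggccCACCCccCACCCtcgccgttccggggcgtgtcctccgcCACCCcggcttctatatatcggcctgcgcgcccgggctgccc
Igfbp4, chr11:99040994-99041243, plus strand: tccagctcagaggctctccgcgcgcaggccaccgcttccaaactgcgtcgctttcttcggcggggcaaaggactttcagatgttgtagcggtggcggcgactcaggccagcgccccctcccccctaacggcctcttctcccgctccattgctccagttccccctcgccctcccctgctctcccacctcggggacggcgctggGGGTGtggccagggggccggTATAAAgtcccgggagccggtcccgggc
Igfbp5, chr1:72874866-72875115, minus strand: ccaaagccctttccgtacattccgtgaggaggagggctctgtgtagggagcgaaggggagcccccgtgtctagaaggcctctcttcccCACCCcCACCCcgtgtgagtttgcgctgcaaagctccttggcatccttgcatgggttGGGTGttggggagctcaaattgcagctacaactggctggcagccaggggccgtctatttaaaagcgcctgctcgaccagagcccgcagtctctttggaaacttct

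A window was given for 8 of the 10 members, and Igfbp2 had 2 windows, of which the upstream one is printed. All 4 binding-protein genes had a CACCC box, a run found on either strand in 52.0% of the 32851 promoter windows of the genome. The CACCC box was also in the window of Irs1, so 5 of the 8 members had it. The E-box, its own reverse complement, was in 6.02% of all windows and in those of Igfbp2, Irs1 and Irs2. Of the printed promoters only that of Igfbp4 held a TATA box, 28 bases before the start. On either strand, 12.4% of all windows had one. The GC box GGGCGG (32.7% of windows) was found in Igf1r, Irs1, Irs2 and Igfbp2, and the CCAAT box (33.8%) in Igf1 and Irs2. Genes that rose and genes that fell shared the CACCC box. These are matches of letters in a window, and no binding was measured.

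All 10 members were well above background on all 4 arrays by at least 1 probe, and 18 of the 19 probes were. Values below are log2 signals relative to the 75th percentile of their array, and are compared between arrays and never between probes. Errors (±) are 1 SD from the error model of the scanner software, which covers neither cultures nor RNA preparation. For a mean of several spots or probes they were combined as if independent. They are then errors of the mean, which shrink with the number of spots and leave out the spread between probes. A gene with several probes took their mean. In bulk RNA, fewer cells of a type and less RNA per cell cannot be told apart. At day 8, 4 members were at least 2-fold above the CMP control (Igfbp3, Igfbp4, Igfbp5 and Slc2a4), as were 14.4% of all genes. Igf1r and Igfbp2 were at least 2-fold below it, as were 11.6% of all genes. With both directions counted, 60.0% of the members and 26.0% of all genes were past 2-fold, and the median change was 0.30 over the members against -0.03 over all genes. Among genes well above background on all 4 arrays, as all members were, 21.1% were past 2-fold. The members were chosen with earlier results of these data known, so their share cannot show an excess over all genes. At day 4 the members past 2-fold were 2 higher (Igfbp3 and Igfbp4; 12.1% of all genes) and 3 lower (Igf1, Igf1r and Igfbp2; 9.57%). At day 6 there were 3 higher (13.0%), Slc2a4 having joined the other two, and 2 lower (11.4%), Igf1 having left. The range over the 4 arrays reached 4-fold in 5 of the 10 members, Slc2a4 and the 4 binding proteins, and in 14.0% of all genes. That share includes genes that were dim on some arrays. Igfbp5 only just reached 4-fold, with a log2 range of 2.02. Its range was 1.95 with quantile normalization, 1.89 with the array median as scale and 1.10 with normexp correction and quantile normalization, all below 4-fold.

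**Figure D1:**
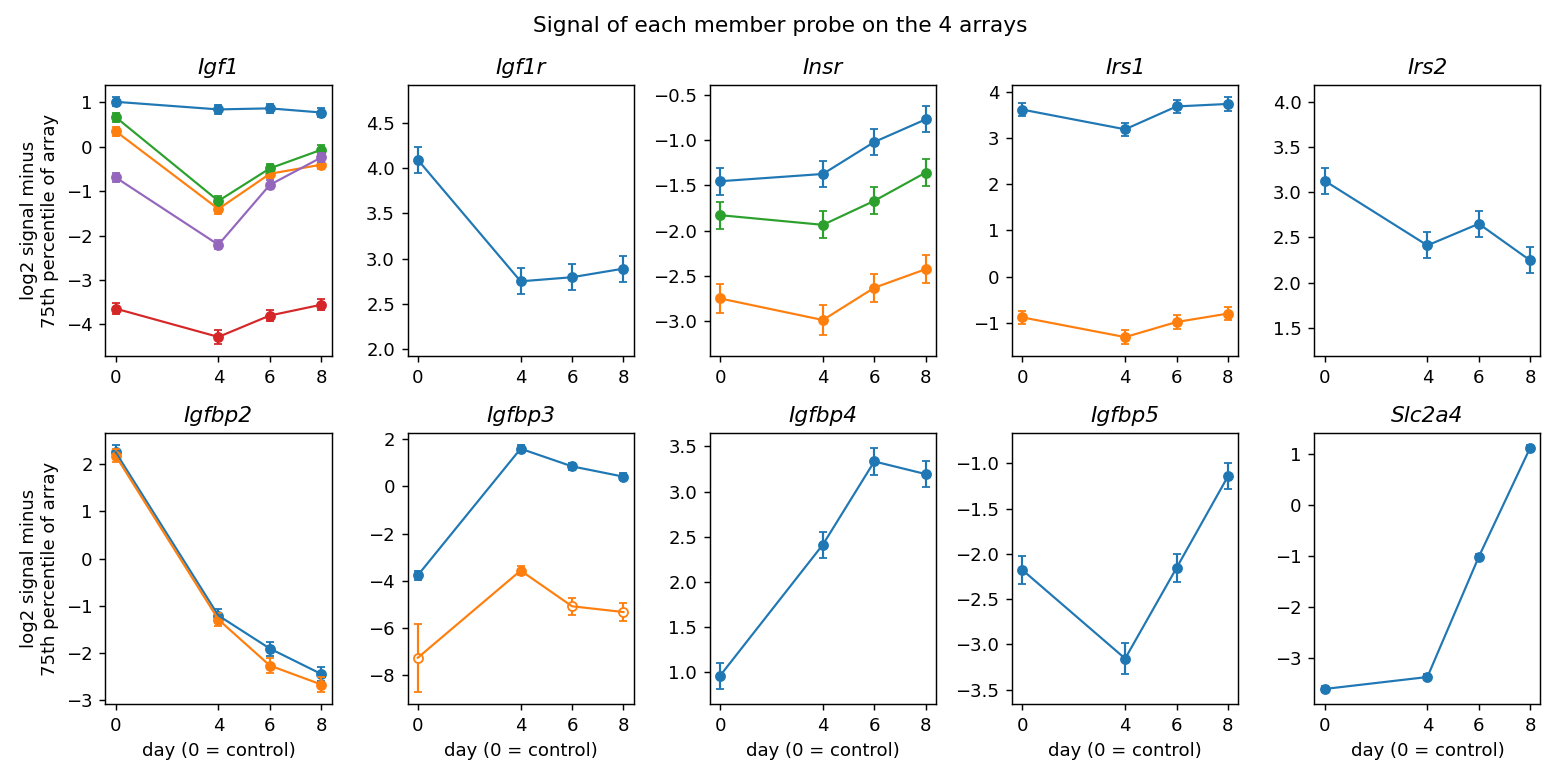
Log2 signal relative to the 75th percentile of the array (y axis, own scale in each panel) of each member probe against day (x axis, day 0 being the CMP control). Each line is 1 probe, bars are 1 SD of the scanner's error model, and open points were not well above background. Igfbp2 fell at every step, Slc2a4 stayed near the control at day 4 and rose after it, and Igfbp5 dipped at day 4 before rising.

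Igf1 encodes insulin-like growth factor I, and its signal fell at day 4 and then came back. In untreated CMPs the mean of its 5 probes was -0.46, and in OSKM-CMPs it was -1.65 (day 4), -0.98 (day 6) and -0.70 (day 8). Day 4 was thus the lowest array, 2.29-fold below the control (-1.19 ± 0.07), and the difference had shrunk to -0.24 ± 0.07 by day 8. From day 4 to day 8 the signal rose by 0.95 ± 0.07, or 1.94-fold.

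The 5 probes of Igf1 did not move alike. They lie on the plus strand of chromosome 10 (mm9), and numbered 1 to 5 in the direction of transcription they start at 87378456, 87393561, 87393581, 87395924 and 87399581. Probe 1, placed 15.1 kb upstream of probe 2, moved little, at 1.01, 0.84, 0.87 and 0.77 on the control, day 4, day 6 and day 8 arrays. Probes 2 and 3 overlap and gave nearly the same course, with day 4 differences from the control of -1.75 ± 0.15 and -1.89 ± 0.15 and day 8 differences of -0.76 ± 0.14 and -0.74 ± 0.14. Probe 5 fell by 1.52 ± 0.15 at day 4 but ended 0.45 ± 0.14 above the control at day 8. Probe 4, the dimmest of them, had a signal of 31.1 in the control and 19.96 at day 4 and ended at 34.9. At day 8 the sign of the Igf1 difference therefore depended on the probe, being negative in 3 and positive in 2, of which probe 4 was within its error (0.09 ± 0.18).

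**Figure D2:**
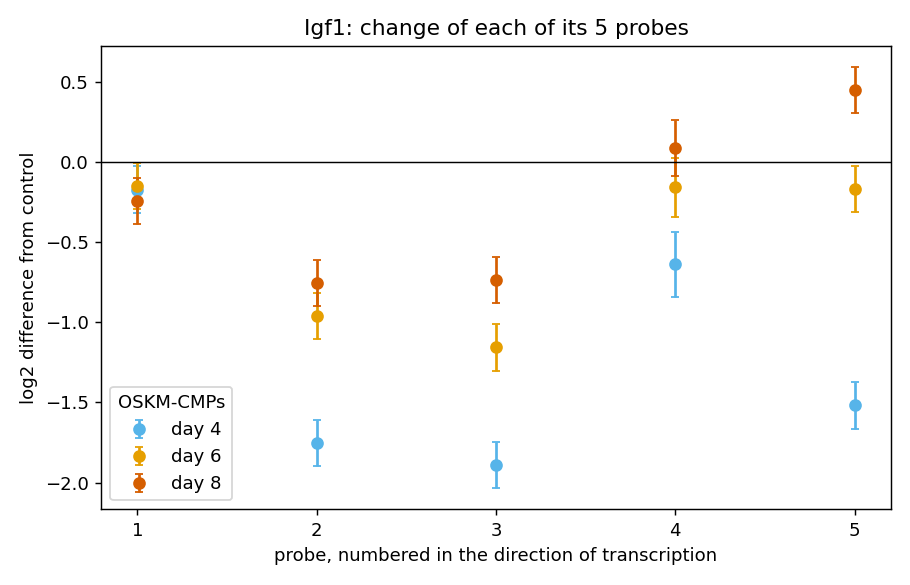
Log2 difference from the CMP control (y axis) at day 4, 6 and 8 for each of the 5 Igf1 probes (x axis, numbered in the direction of transcription), with bars of 1 SD from the scanner's error model. Probe 1 was 0.15 to 0.24 below the control, while probes 2, 3 and 5 were 1.52 to 1.89 below it at day 4.

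Igf1r, the receptor for insulin-like growth factors, fell by day 4 and stayed down. Its probe (chr7:75378461-75378520, plus strand, mm9) read 4.09 in untreated CMPs, and 2.75 (day 4), 2.79 (day 6) and 2.89 (day 8) in OSKM-CMPs. The 3 OSKM-CMP arrays lay within 0.14 of each other, and each was below the control. The differences were -1.34 ± 0.20, -1.30 ± 0.20 and -1.20 ± 0.20, or 2.54-, 2.46- and 2.30-fold lower.

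Insr, the insulin receptor, drifted upward and did not reach 2-fold. Its 3 probes on chromosome 8 (minus strand, mm9) averaged -2.01 in the control and, from day 4 on, -2.10, -1.77 and -1.52. The day 4 difference of -0.09 ± 0.12 was within the error and that at day 8 was 0.49 ± 0.12, or 1.41-fold. All 3 probes were above the control at day 8, by 0.68 (3151667-3151726), 0.32 (3154024-3154083) and 0.47 (3155472-3155531). Insr and Igf1r, which encode close relatives, thus ended on opposite sides of the control. The size of the Insr difference depended on the processing. At day 8 it ran from 0.20 to 0.68 over the settings tried, and that of Igf1r from -1.47 to -1.03.

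Irs1 and Irs2 encode the docking proteins through which both receptors signal, and neither reached 2-fold on any day. The mean of the 2 Irs1 probes was 1.37 in the control and, from day 4 on, 0.94, 1.35 and 1.47. Both probes (chr1:82229692-82229751 and chr1:82233564-82233623, minus strand, mm9) were 0.43 lower at day 4, and at day 8 the mean was 0.10 ± 0.14 above the control, within its error. Irs2 (chr8:11004490-11004549, minus strand, mm9) read 3.13, 2.41, 2.65 and 2.25 in the same order. Every OSKM-CMP array was below the control for Irs2, by 0.72 ± 0.20, 0.48 ± 0.20 and 0.88 ± 0.20. At day 8 this was 1.84-fold.

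Igfbp2 had the largest fall of the 10 members. It encodes a secreted binding protein of both IGFs that is made by preadipocytes. One of its probes (chr1:72898677-72898736, plus strand, mm9) reads without a stop in its first frame up to a stop codon at its end, given in capitals, and is shown because it carries the deepest fall of the set together with its neighbour.
Igfbp2 probe: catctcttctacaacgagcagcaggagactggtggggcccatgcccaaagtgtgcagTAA
This probe read 2.25 in untreated CMPs, and -1.21 (day 4), -1.91 (day 6) and -2.44 (day 8) in OSKM-CMPs. The second probe, downstream of it (chr1:72898813-72898872), read 2.18, -1.29, -2.27 and -2.67. Both probes fell at each step, and most of the fall had taken place by day 4. The mean difference from the control grew from -3.47 at day 4 to -4.30 (day 6) and -4.77 ± 0.15 (day 8), the last being 27.3-fold. With normexp correction and quantile normalization it was -3.88 at day 8. In unscaled signal the probe shown went from 1856 in the control to 75.5 at day 8.

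Igfbp3, the main carrier of IGFs in blood, lay above the control where Igfbp2 lay below it, but like Igfbp2 it fell after day 4. Its RefSeq probe (chr11:7106594-7106653, minus strand, mm9) read -3.76 in untreated CMPs, and 1.60 (day 4), 0.85 (day 6) and 0.42 (day 8) in OSKM-CMPs. The control was the lowest array and day 4 the highest. The differences were 5.37 ± 0.23, 4.62 ± 0.23 and 4.18 ± 0.23 in order of day. A second probe, for another transcript (chr11:7107949-7108008), was well above background on the day 4 array alone, where it was at least 3.42-fold above the control. With that dim probe averaged in, the gene's differences were 4.53, 3.40 and 3.06 ± 0.76. With normexp correction and quantile normalization the day 8 mean was 1.44. Between day 4 and day 8 the RefSeq probe changed by -1.18 ± 0.20.

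Igfbp4, a secreted binding protein that is cleaved to release IGFs, rose in OSKM-CMPs. Its single probe (chr11:98913334-98913393, plus strand, mm9) read 0.96 in the control and, from day 4 on, 2.41, 3.33 and 3.19. All OSKM-CMP arrays were above the control, and day 6 and day 8 differed by less than the error (-0.14 ± 0.20). The day 8 difference was 2.23 ± 0.20, or 4.69-fold.

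Igfbp5, a binding protein that also attaches to extracellular matrix, fell and then rose. Its probe (chr1:72904829-72904888, minus strand, mm9) read -2.18 in the control and, from day 4 on, -3.16, -2.16 and -1.14. Day 4 was below the control by 0.98 ± 0.23, day 6 level with it at 0.02 ± 0.21, and day 8 above it by 1.04 ± 0.21. From day 4 to day 8 the rise was 2.02 ± 0.23, or 4.04-fold. Igfbp2 and Igfbp5 lie side by side on chromosome 1 on opposite strands, with 5956 bases between their nearest probes, and had opposite differences from the control at day 8. The day 8 value of Igfbp5 was just past 2-fold and fell below it under 3 other scalings, at 0.53 to 0.85.

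**Figure D3:**
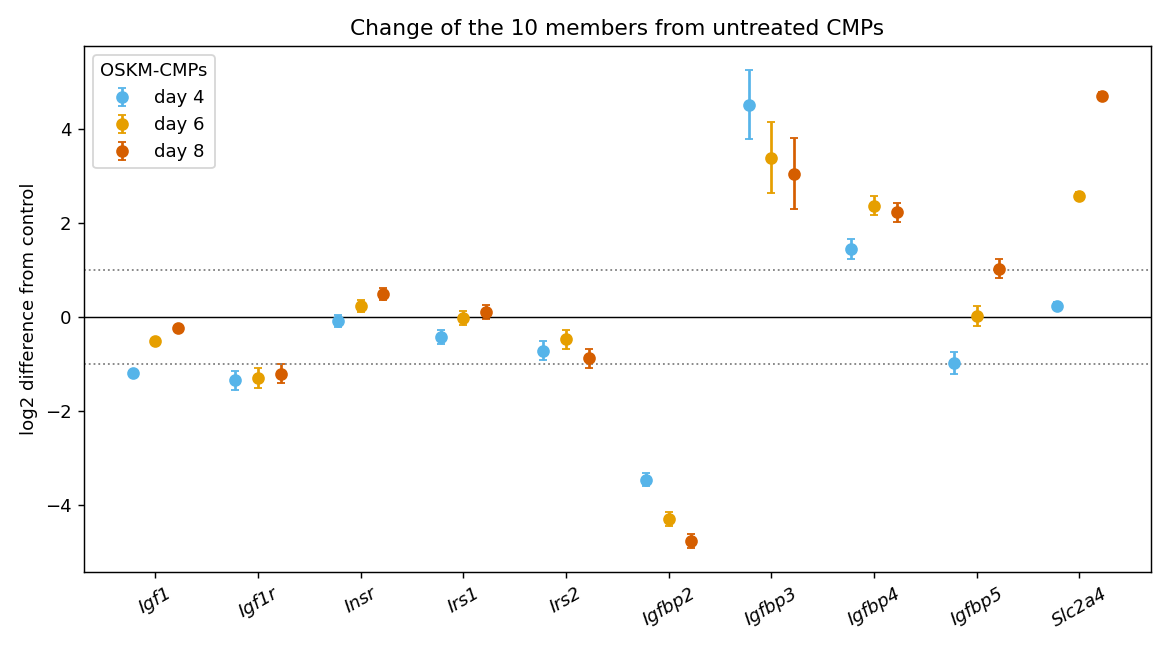
Log2 difference from the CMP control (y axis) of the 10 members (x axis) at day 4, 6 and 8 of OSKM-CMPs, Igfbp3 being the mean of its 2 probes, 1 of them dim. Bars are 1 SD of the scanner's error model, and dotted lines mark 2-fold. At day 8, Igfbp3, Igfbp4, Igfbp5 and Slc2a4 lay above the upper line and Igf1r and Igfbp2 below the lower one.

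Slc2a4 encodes GLUT4, the insulin-responsive glucose transporter of fat and muscle, and had the largest rise of the members at day 8. Its probe (chr11:69756073-69756132, minus strand, mm9) was spotted 10 times on each array, so the spread of spots within an array is known. In the CMP control the spots had signals from 22.7 to 39.5 with a median of 33.2, and at day 4 from 34.2 to 40.1 with a median of 38.4. These arrays overlapped. At day 6 the spots ranged from 191.0 to 213.5 (median 199.6) and at day 8 from 849.5 to 922.1 (median 903.4). Neither overlapped with any other array. On the log2 scale the means were -3.60 ± 0.23 (SD, 10 spots) in the control and, from day 4 on, -3.37 ± 0.08, -1.01 ± 0.05 and 1.12 ± 0.04. The differences from the control, with the error of the scanner, were 0.23 ± 0.08, 2.58 ± 0.07 and 4.72 ± 0.07, the last being 26.4-fold. With normexp correction and quantile normalization the day 6 and day 8 differences were 1.44 and 3.32. The steps from day 4 to 6 and from day 6 to 8 were 2.35 and 2.14. Spots share 1 RNA sample, so their spread says nothing of other cultures.

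**Figure D4:**
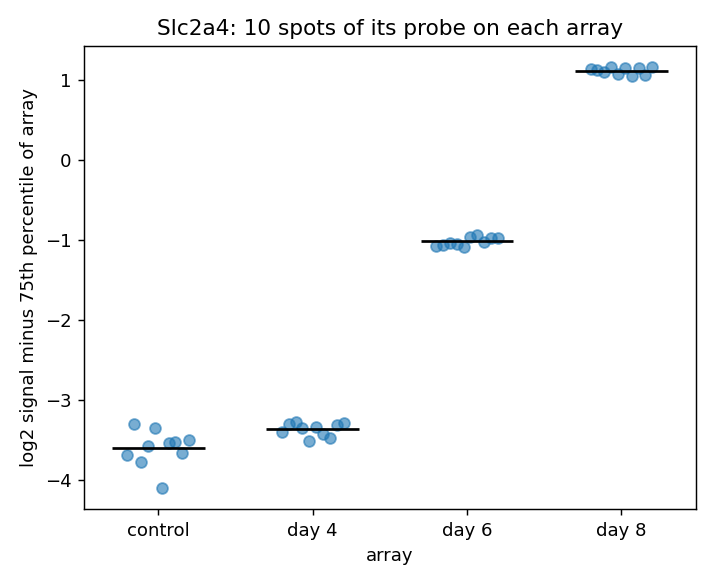
Log2 signal relative to the 75th percentile of the array (y axis) of the 10 spots of the Slc2a4 probe on each array (x axis). Points are spots and lines their means. The control and day 4 spots overlap, and the day 6 and day 8 spots stand apart at about -1.01 and 1.12.

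Markers of other cell types moved on the same arrays. Of 6 adipocyte markers (Adipoq, Fabp4, Plin1, Cidec, Lep and Retn), the CMP control had 2 well above background, and the later arrays 5, 5 and 6 in order of day. Their summed signal, as a multiple of the array's 75th percentile, was 2.49, 19.4, 106.9 and 227. Fabp4 made up nearly all of this sum in the control and at day 4, with unscaled signals of 944 and 7315. At day 4 the next brightest marker, Adipoq, had a signal of 137. The sum, then mostly Fabp4, had risen by day 4, when Slc2a4 had moved by 0.23. The summed signal of 3 smooth muscle markers (Acta2, Tagln and Cnn1) fell from 580 in the control to 36.9, 20.3 and 19.2, with the largest step by day 4, as for Igfbp2. No array had Myh11, the other smooth muscle marker, well above background. The 6 mesenchymal markers were above background on all arrays, with sums between 503 and 621, and went both ways at day 8. Ly6a, which encodes Sca-1, and Pdgfra were at 2.69 and 0.71 from the control, and Thy1, Eng, Cd44 and Col1a1 at -1.78, -1.19, -0.54 and -0.23. Of 6 leukocyte markers, 5 were measured, with sums between 0.479 and 0.798, and they went both ways at day 8. Cd68, Coro1a, Fcer1g and Ptprc were at 1.56, 1.12, 0.51 and 0.02 from the control. Tyrobp was at least 1.57-fold lower, being well above background in the control alone. The endothelial sum went from 1.74 in the control to 1.05 at day 8, with Cdh5 at least 11.9-fold lower and Tek at -2.70, while Kdr and Pecam1 were at -0.27 and 0.10. Among cardiomyocyte markers Tnnt2 was at -1.60, and it made up nearly all of a sum that went from 11.9 to 3.98. Myh6 was at least 1.91-fold higher, Ryr2 was not well above background on either of these arrays, and Actc1 was so on none. The part of these cell types in the members' changes was not tested.

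Steps between the later arrays do not involve the control. From day 4 to day 6, Slc2a4 and Igfbp5 rose at least 2-fold (2.83% of all genes) and Igfbp3, as the mean of its probes, fell (2.64%). That fall rests on the probe that was not well above background at day 6, since the RefSeq probe alone was at -0.75 ± 0.20. From day 6 to day 8, Slc2a4 (4.39-fold) and Igfbp5 (2.02-fold) again rose, among 2.44% of all genes, and no member fell by 2-fold, as 1.01% of all genes did. Over the whole span from day 4 to day 8, Slc2a4 was 22.4-fold and Igfbp5 4.04-fold higher (4.93% of all genes), and Igfbp2 (2.47-fold) and the RefSeq probe of Igfbp3 (-1.18) were lower (4.1%). The Igfbp5 steps were only just past 2-fold, at 1.00 and 1.01 on the log2 scale. They were 0.97 and 0.98 with quantile normalization, 0.51 and 0.59 with normexp correction before it, and the later step was 0.88 with the array median as scale. With normexp correction and quantile normalization the day 4 to day 8 differences were 1.10 for Igfbp5, 3.27 for Slc2a4, -0.87 for Igfbp2 and -0.78 for Igfbp3, so both falls missed 2-fold.

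The courses most like those of the 3 members with the widest range were sought among 14545 other genes, by the Euclidean distance between their 4 log2 values after each gene's mean was subtracted. Closest to Igfbp2 were Fes, a tyrosine kinase, and Zdhhc2, a palmitoyltransferase, at distances of 0.136 and 0.138. At day 8 they were -4.88 and -4.68 from the control, against -4.77 for Igfbp2. For Igfbp3 the neighbours depended on its dim probe. The mean of both probes lay closest to the urea transporter gene Slc14a1 (0.340) and Tspan11 (0.438), but with probes kept only if every array had them above background, a choice made after seeing the data, these were 1.25 and 1.02 away and the closest of 14531 genes were Urah (0.198) and Agap2 (0.380). Slc2a4 had no neighbour as near. The first were Gpat3, which makes glycerolipid, at 0.860 and the heme carrier gene Hpx at 0.938, with day 8 differences of 3.93 and 3.73. With 4 arrays, likeness of this kind is a description.

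Other genes of the pathway were taken from a list of 85 in 8 groups. Of these, 83 were well above background on at least 1 array, and Igfbp1 and Inpp5d were so on none. At day 8, 16 were at least 2-fold higher (19.3%, with 14.4% of all genes) and 8 lower (9.64%, with 11.6%), while 59 lay between, and their median change was 0.09. Of the 16, 4 were not well above background on every array. On the 79 that were, 12 were higher (15.2%, with 10.7% of genes filtered in the same way) and 8 lower (10.1%, with 10.4%).

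Binding proteins and their partners had the highest median of the 8 groups, 2.10 over 8 genes, of which 5 were at least 2-fold higher and 0 lower, beside 14.4% and 11.6% of all genes. Median and count include Igfals and Pappa2 at their measured values, though their control signals were not well above background. In this group, 6 genes were well above background on all 4 arrays. Of these, Stc1, Htra1 and Igfbp6 were at least 2-fold higher and 0 lower, beside 10.7% and 10.4% of genes filtered in the same way. Igfals, the subunit that stabilises circulating IGF complexes, was at least 15.6-fold higher, its control signal being not well above background. Pappa2, a protease that cleaves IGF-binding proteins, was at least 6.11-fold higher, also from a control signal not well above background. Stc1, an inhibitor of such proteases, was 11.0-fold higher (3.45 ± 0.22), and the secreted protease gene Htra1 4.62-fold higher. Pappa, the protease that cleaves the product of Igfbp4, was lower on each day, with the deepest value at day 4 (-2.51) and -0.94 ± 0.20 at day 8. Igfbp7 was likewise lowest at day 4 (-1.17) and -0.59 at day 8. Igfbp6, chosen after its values were seen, was level with the control at day 4 (-0.01) and 3.98-fold higher at day 8.

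Among the ligands and receptors, Igf2 was at least 2.45-fold higher at day 8 and Insrr, an orphan relative of the insulin receptor, at least 10.2-fold, both against a control that was not well above background. Igf2r, which takes up Igf2 for degradation, was 0.75 ± 0.06 higher. Lrp1, a receptor with many ligands, was 0.35 lower as a mean of 3 probes that ran from -0.80 to 0.53. Ins2, an insulin gene, was 0.14 ± 0.21 from the control. None of the 10 adaptors reached 2-fold in either direction. Among those on 1 side of the control on all 3 days, Crk (-0.71), Irs4 (-0.67) and Gab1 (-0.55) were furthest below it at day 8, and Sh2b1 (0.22) was above it. Sos1 and Sh2b2, named after their values were seen, were below the control at day 4 (-0.20 and -0.57) and above it at day 8 (0.75 and 0.63).

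Genes of PI3 kinase and Akt signaling went both ways. The catalytic subunits Pik3cb and Pik3cd were at -1.43 ± 0.21 and -1.79 ± 0.14 at day 8, and all 3 Pik3cd probes fell, the least to -1.62. The regulatory subunits Pik3r1 and Pik3r3 were higher, by 1.55 ± 0.20 (2.94-fold) and 2.04 ± 0.20 (4.12-fold). Akt1 was 0.74 lower. Pde3b, the phosphodiesterase through which insulin restrains lipolysis, was 1.34 ± 0.29 higher as a mean of 2 probes at 0.46 and 2.22.

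Of the 14 brakes on the pathway that were measured, 2 were at least 2-fold higher and 5 lower at day 8, beside 14.4% and 11.6% of all genes, and their median was -0.18. Socs3, which blocks the insulin receptor and is induced by cytokines, fell furthest, to -2.17 ± 0.20. The phosphatase genes Ptprf and Phlpp1 were at -1.24 and -1.20. Socs1 rose, at 1.58 ± 0.20 or 2.99-fold. Inpp5k, a phosphoinositide phosphatase, was at 0.53.

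In the FOXO, mTOR and GSK3 group, 2 of 16 genes were at least 2-fold higher and 0 lower at day 8, beside 14.4% and 11.6% of all genes. The higher genes were Foxo1, at 1.04 ± 0.14 with both probes past 2-fold, and Foxo6, at 1.33 with probes at 0.57 and 2.10. Deptor was at 0.45, and the largest falls were those of Eif4ebp1 (-0.81), Gsk3a (-0.70) and Tsc2 (-0.56).

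In the glucose uptake group, 2 of 18 genes were at least 2-fold higher and 1 lower at day 8, beside 14.4% and 11.6% of all genes. Slc2a1, the transporter that serves basal glucose uptake in most cells, was lower on all 3 days, by 1.39, 1.13 and 1.02 ± 0.20, while Slc2a4 rose. Slc2a3 was highest at day 4 (1.02) and at 0.60 at day 8. Sort1, a sorting receptor of GLUT4 vesicles, averaged 1.70 over 3 probes that disagreed, from -0.07 to 2.71. Vamp2, a protein of vesicle fusion, was at 0.76, Trip10 at -0.56 and the hexokinase gene Hk1 at -0.47.

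**Figure D5:**
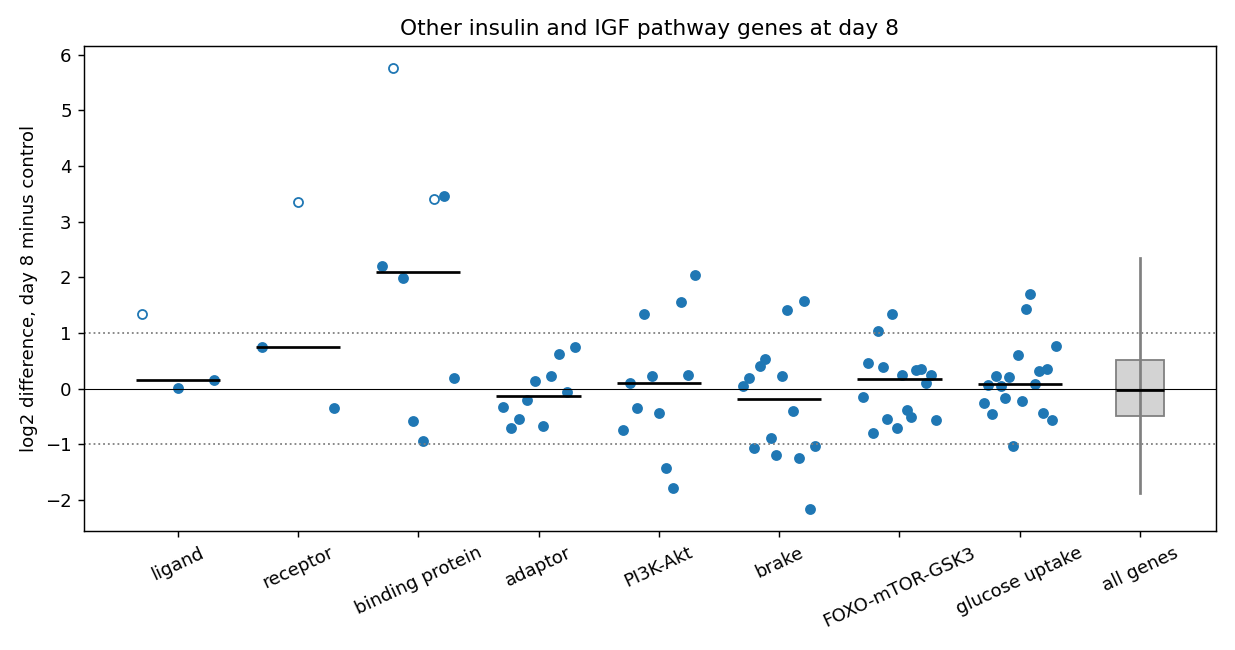
Log2 difference between day 8 and the CMP control (y axis) of 83 other genes of the pathway in 8 groups (x axis), with points for genes, lines for group medians and dotted lines at 2-fold. Open points were not well above background on one of these arrays, and the box and line at the right give the middle 50% and 90% of all 16660 genes. Group medians include the open points. The group of binding proteins and their partners, which include proteases and a protease inhibitor, has the highest median (2.10). The adaptors stay between the dotted lines.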

How the data were processed

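RNA from each of the 4 conditions was labelled with Cy3 and hybridised to 1 SurePrint G3 Mouse array. The authors extracted a background-subtracted intensity for every spot with Feature Extraction (version 9.5.3 in the labels, 10.7.3.1 in the file headers), and all arrays were read in 1 scan. The deposited normalized table holds log2 values that the authors made in GeneSpring. Set against the scanner signals, each of its columns was the log2 signal shifted by a constant.

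Here control spots and outlier spots (87 to 106 on an array) were left out, log2 processed signals were averaged over the spots of a probe, and the 75th percentile of the array (a signal of 388 to 411) was taken off. No spot was saturated, and 31498 to 33211 of 55681 probes were well above background (the scanner's flag on at least 50% of a probe's spots). A gene is the mean of its kept probes, those that 1 or more arrays had well above background. Where one side was not well above background, the change is given as a bound against the lowest signal well above background on that array. The median error of a difference was 0.20 (log2). Names of other probes came from a RefSeq table (GRCm38.p6): 26863 by accession, 3752 by symbol, 623 by synonym, and 24443 without a match. Probe coordinates (mm9) were taken from the scanner files.

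The members and gene lists were chosen with earlier results of these data known. All members are named. Of the pathway list, each group gives up to 3 genes with the largest rise and 3 with the largest fall at day 8 among those well above background on both arrays that lay on 1 side of the control on every day, plus any past 2-fold as a bound. Not every gene of the list is reported here by name. With 1 array per condition no test was made, and the number of arrays limits the precision. The 8 alternatives were normexp correction (offset 50, limma 3.58.1) with quantile normalization, quantile normalization of the processed signal, scaling to the array median, the authors' values, no dim-probe filter, only probes above background on every array, dim values raised to a floor, and the brightest probe. One more, the likeness search with only probes above background on every array, was added after seeing the data. The gene means and 2-fold counts were run on simulated data with known changes. The scaling, background flag, bounds, errors and likeness search were not tested in this way. Python 3.11.15, numpy 2.4.6, pandas 2.3.3 and R 4.3.3 were used.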

Additional observations from a re-analysis of the deposited data

Results flagged for a closer look

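Igfbp5 differed in direction between days. Its difference from the CMP control was -0.98 at day 4 and 1.04 at day 8 on the log2 scale, against errors of 0.23 and 0.21 from the scanner. Both differences use the same control array, each rests on 1 array and 1 spot, and the difference between the days was not tested.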

How the results depend on the processing

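No paired analysis was possible because there were no replicates. Over the 8 alternatives, 191 of 240 member differences from the control moved by less than the scanner's error and 49 by more. The 191 does not measure robustness, since several alternatives could hardly move these values. The authors' values and the missing dim-probe filter left all 30 in place. Using only probes above background on every array, or the floor, could move only Igfbp3 (27 of 30 in place). Normexp with quantile normalization and the array median each moved 15 of 30 by more than the error. Small differences could change sign, as that of Irs1 at day 8 (-0.16 to 0.13). Of the 16 member differences past 2-fold, none changed sign, but Igf1 at day 4 dropped to -0.88 with normexp and quantile normalization and to -0.17 with the brightest probe. Igfbp5 at day 8 dropped to 0.53 with normexp and quantile normalization, 0.85 with quantile normalization and 0.77 with the array median. Newly past 2-fold were Igfbp5 at day 4 (-1.10 with quantile normalization, -1.12 with the array median) and Irs2 at day 8 (-1.15 with the array median). At day 8 Igfbp3 ranged from 1.44 to 4.18, Igfbp2 from -5.04 to -3.88 and Slc2a4 from 3.32 to 4.72. Scaling to the array median moved the median of all genes from -0.03 to -0.30 at day 8, that of the members from 0.30 to 0.031 and that of the pathway genes from 0.09 to -0.18, with 12 pathway genes in place of 8 at least 2-fold lower, and all genes split into 11.3% higher and 16.9% lower. With normexp and quantile normalization, 5 pathway genes in place of 8 were at least 2-fold lower and 12 in place of 16 higher, and the shares of all genes were 6.42% higher and 6.65% lower, against 14.4% and 11.6%. Differences of dim probes, such as the second Igfbp3 probe, are limited by the signal over background.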
